A study of Mus musculus with 3 samples.

Results

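The 10 heat shock chaperone and co-chaperone genes described here were measured across the cell classes of the mouse mesenteric lymph node: Hsp90aa1, Hsp90ab1, Hspa8, Hsph1, Hspa1a, Hspa1b, Dnaja1, Dnajb1, Hspd1 and Hspe1. They were taken by symbol, 10 of the 32285 genes in the deposited count tables, and all 10 were counted in all 3 libraries. The set was proposed after Hsph1, Dnaja1 and Hsp90aa1 had been seen at higher levels in the LysoPS-OVA library of these same data. Ratios between that library and the other libraries are therefore a description and support nothing. Differences between cell classes inside a library were not used in that choice.

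Each of the 3 groups was 1 single-cell RNA library (10x droplets, 3′ ends of transcripts, counted by unique molecular identifiers, UMIs) of mesenteric lymph node cells pooled from 6 mice that were dosed by mouth for 4 weeks. The LysoPS-OVA group received 1 µg of ovalbumin (OVA) with lyso-phosphatidylserine nanoparticles, the Free OVA group 1 µg of ovalbumin without the particles, and the Citrate buffer group, whose title calls it an untreated control, 5 mM citrate. Strain, sex and age are not given in the labels used here, all nodes were digested with enzymes and depleted of dead cells, and 10000 cells were loaded per library. The labels name the cell type as intestinal cells, while the tissue is mesenteric lymph node. In B-like barcodes the 6 B cell markers summed to 4397 to 5385 CPM (UMIs scaled by the class total of a library). The 6 T cell markers summed to 55.3 to 177 CPM there. In migratory DC-like barcodes 7 migratory dendritic cell (DC) markers summed to 5213 to 6128 CPM. The classes were gated on these same markers, so the sums describe the gates and do not bear on the label.

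The libraries held 20873 (LysoPS-OVA), 28660 (Free OVA) and 28927 (Citrate buffer) barcodes and 81559237 to 96616683 UMIs, and 16076, 21758 and 22361 barcodes were kept. Each of these counts exceeds the 10000 cells that the labels give as loaded. The reason was not tested, and barcodes are not read as a count of cells. Pairs of libraries shared 166 to 194 barcode sequences. Classes were gated on markers, and 8 had at least 50 barcodes in each library; between 30.3% and 42.5% of kept barcodes met no gate. B-like barcodes low in Malat1, a nuclear RNA, made up 7.10% in LysoPS-OVA, 29.0% in Free OVA and 17.7% in Citrate buffer, and Y-linked transcripts marked 87.3%, 77.3% and 56.0% of the B-like barcodes that carried transcripts of a single sex. With 1 library per group there is no spread between animals and no test. Every 95% interval below is in square brackets and covers counting error only. Intervals of shares count each barcode as a separate draw, and no interval measures the spread between animals.

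Chaperones bind unfolded proteins and help them to fold. In the cytosol the Hsp70 protein Hspa8 takes up a client with the help of J-domain proteins such as Dnaja1 and Dnajb1, Hsph1 (Hsp105, an Hsp110 protein) releases its nucleotide, and Stip1 (Hop) passes the client on to Hsp90. In the mitochondrial matrix the Hsp60 ring Hspd1 works with its Hsp10 lid Hspe1. Heat shock factor 1, freed when unfolded proteins draw chaperones away, binds inverted repeats of the letters GAA before these genes, and in lymph node cells the same system serves cell growth, antibody secretion and antigen handling.

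Promoter windows from RefSeq (GRCm38.p6, 250 bases before to 50 after each start) were matched for 7 of the 10 genes; Hsp90aa1, Hsp90ab1 and Hspa8 are named only. The windows were searched on both strands for GAANNTTC and TTCNNGAA, which each read the same on both strands, and for 3-repeat forms, in which another inverted repeat follows at the same spacing and which therefore overlap the 2-repeat matches. GAANNTTC was in 7.86% of all 32851 windows, TTCNNGAA in 8.52%, either in 15.1%, and a 3-repeat form in 0.603%. Of the 7 genes, 6 held a 2-repeat form and 3 (Hsph1, Hspd1 and Hspe1) a 3-repeat form, while no form was found in the Dnajb1 windows. The 7 genes had 12 windows and a gene counted if any of its windows matched. These counts of genes are therefore not on the same scale as the shares of windows. The sequences below are shown because they carry these matches, which are in capitals; a match is not a measured binding site. All are 5′ to 3′ on the gene's strand.
Hsph1, chr5:149636351-149636380, minus strand: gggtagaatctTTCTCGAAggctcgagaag
Hsph1, chr5:149636287-149636316, minus strand: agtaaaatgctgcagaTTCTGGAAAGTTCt
Dnaja1, chr4:40722333-40722362, plus strand: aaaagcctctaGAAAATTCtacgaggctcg
Hspd1, chr1:55088053-55088082, minus strand: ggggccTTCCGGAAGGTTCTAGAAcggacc
Hspa1a, chr17:34972157-34972306, minus strand: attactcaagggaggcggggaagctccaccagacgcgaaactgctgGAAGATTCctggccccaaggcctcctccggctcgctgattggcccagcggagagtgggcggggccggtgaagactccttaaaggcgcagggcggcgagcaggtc
Hspa1b, chr17:34959239-34959388, minus strand: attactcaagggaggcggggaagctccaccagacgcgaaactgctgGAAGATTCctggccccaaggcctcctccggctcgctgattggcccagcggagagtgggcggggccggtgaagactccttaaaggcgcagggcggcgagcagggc
The Hspd1 stretch is also the Hspe1 stretch read on the other strand, since the 2 genes start head to head and their annotated ends overlap by 112 bases. The 150 bases before Hspa1a and Hspa1b are identical at 149 positions. The genes of each of these pairs are therefore not separate matches in the counts above. The printed Hsph1, Dnaja1 and Hspd1 stretches overlap annotated exons, while those of Hspa1a and Hspa1b do not.

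Among the 8 genes other than Hspa1a and Hspa1b, 2 patterns recurred. Hsph1, Dnaja1 and Dnajb1 were lowest in Citrate buffer in B-like and CD4 and CD8 T-like barcodes, higher in Free OVA, and for Hsph1 and Dnaja1 higher again in LysoPS-OVA. Hsp90ab1, Hspd1 and Hspe1 differed little between libraries and much more between classes. Hsp90aa1 and Hspa8 showed some of both. Levels are in CPM, scaled by all UMIs of the class in that library.

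**Figure D1:**
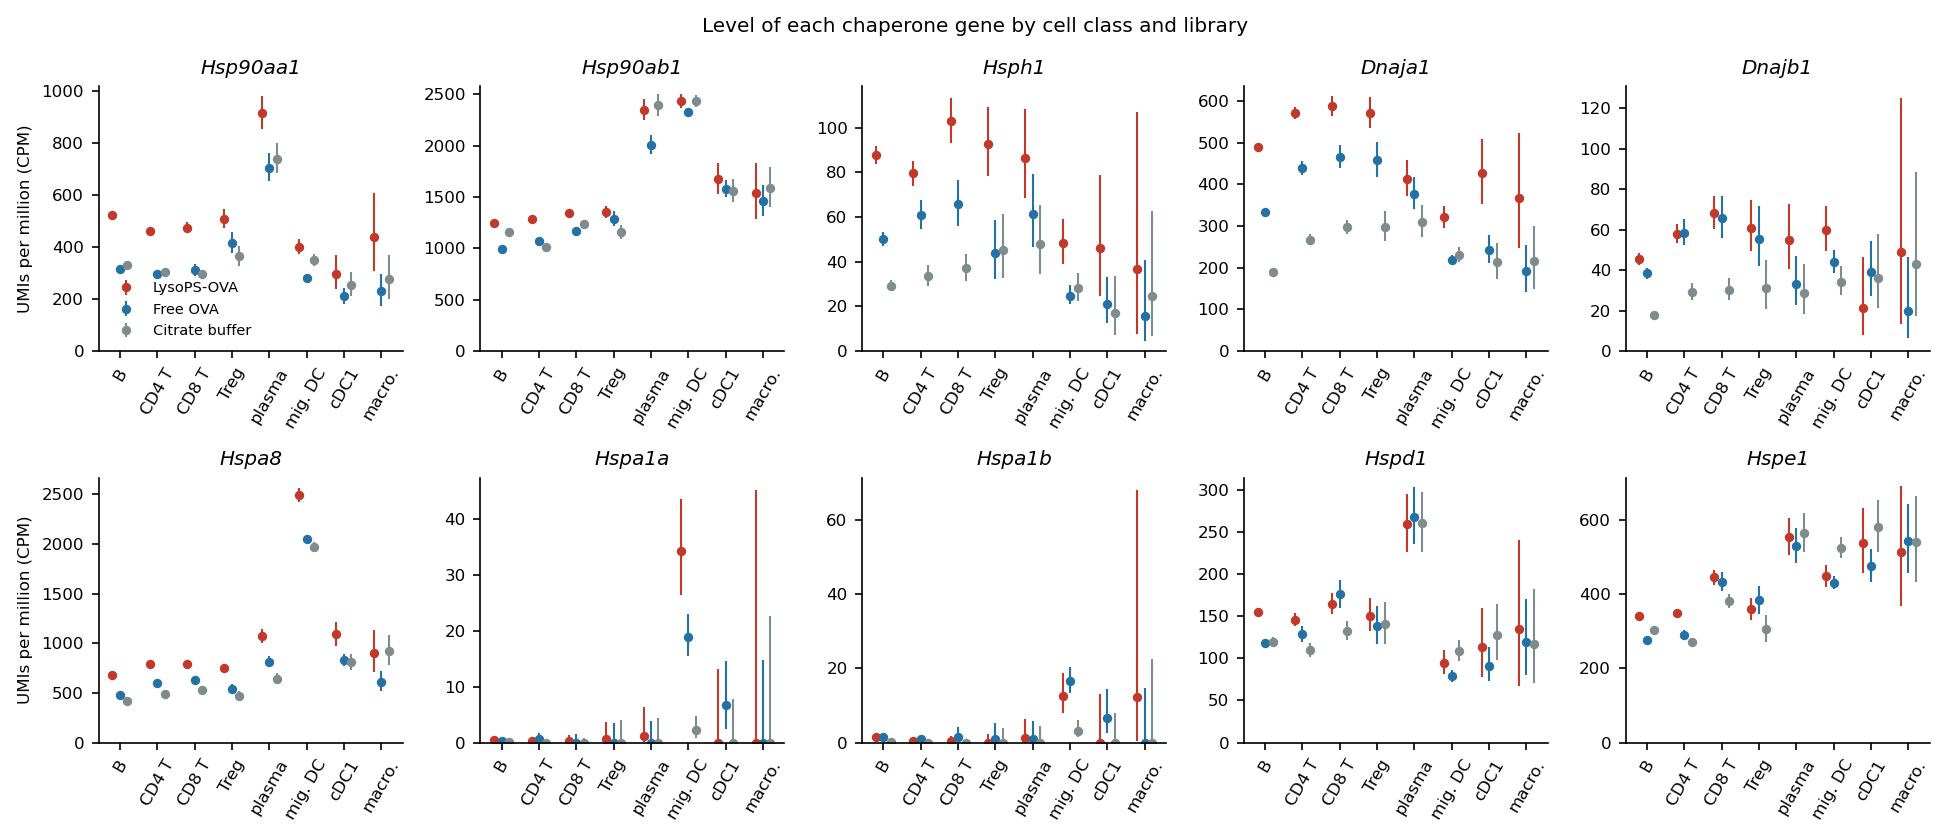
Level of each gene (CPM, linear axis from 0) in 8 cell classes (x axis) and 3 libraries (colours). Points are class sums and bars exact Poisson 95% intervals; Hsph1, Dnaja1 and Dnajb1 separate the libraries in lymphocytes, while Hspa8 and Hsp90ab1 separate the classes, with migratory DC-like barcodes at 1972 to 2490 CPM of Hspa8.

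The Hsp90 pair encodes the stress-inducible alpha form (Hsp90aa1, ENSMUSG00000021270, chr12:110690605-110702728, minus strand, GRCm38) and the abundant beta form (Hsp90ab1, ENSMUSG00000023944, chr17:45567775-45573271, minus strand). In B-like barcodes Hsp90aa1 was at 525 CPM in LysoPS-OVA, 315 in Free OVA and 332 in Citrate buffer. LysoPS-OVA alone was high, at 1.58 times Citrate buffer [1.53 to 1.63], while Free OVA was slightly lower than Citrate buffer at 0.949 times [0.916 to 0.984]. In CD4 T-like barcodes the 3 levels were 461, 295 and 303 CPM and in CD8 T-like barcodes 474, 311 and 296 CPM. LysoPS-OVA was again the high library, at 1.52 [1.44 to 1.61] and 1.60 [1.49 to 1.72] times Citrate buffer and the Free OVA intervals spanning 1. In migratory DC-like barcodes the levels lay closer, at 400, 283 and 351 CPM.

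Hsp90ab1 did not share that pattern. Its B-like levels were 1253 CPM in LysoPS-OVA, 991 in Free OVA and 1161 in Citrate buffer, a ratio of 1.08 [1.06 to 1.10] for LysoPS-OVA and 0.853 [0.837 to 0.870] for Free OVA. The interval of every such ratio stayed inside 1.5-fold in each of the 8 classes for this gene. The largest ratio to Citrate buffer was 1.28 [1.24 to 1.31], in CD4 T-like barcodes of LysoPS-OVA.

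Hspa8, the constitutive Hsp70 (ENSMUSG00000015656, chr9:40800984-40810087, plus strand), was at 681 CPM in LysoPS-OVA, 479 in Free OVA and 422 in Citrate buffer among B-like barcodes. LysoPS-OVA was 1.61 times Citrate buffer [1.57 to 1.66] and Free OVA 1.13 times [1.10 to 1.17], so the 3 libraries were in the same order as for Dnaja1. In plasma-like barcodes the levels were 1071, 816 and 644 CPM, again with no overlap of the intervals. Macrophage-like barcodes were the exception, at 904, 613 and 922 CPM.

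Hsph1 (ENSMUSG00000029657, chr5:149614287-149636376, minus strand), the Hsp110 exchange factor and holdase, had the largest ratio of the 8 genes that were well counted in B-like barcodes. It was at 87.8 CPM in LysoPS-OVA, 50.05 in Free OVA and 29.3 in Citrate buffer, from 1915, 1076 and 480 UMIs. LysoPS-OVA was 3.0 times Citrate buffer [2.71 to 3.32] and Free OVA 1.71 times [1.53 to 1.91], and none of the 3 Poisson intervals overlapped. CD8 T-like barcodes held 103, 65.7 and 37.1 CPM and CD4 T-like barcodes 79.6, 60.9 and 33.7 CPM. Both T classes thus kept the order of B-like barcodes. In regulatory T-like barcodes (92.9, 44.1 and 45.4 CPM) and migratory DC-like barcodes (48.3, 24.9 and 28.1 CPM) LysoPS-OVA alone was high, and the other libraries overlapped.

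The J-domain proteins Dnaja1 (ENSMUSG00000028410, chr4:40722150-40737149, plus strand) and Dnajb1 (Hsp40, ENSMUSG00000005483, chr8:83608193-83612653, plus strand) deliver clients to Hsp70 and stimulate its ATPase. Dnaja1 in B-like barcodes was at 489 CPM in LysoPS-OVA, 333 in Free OVA and 188 in Citrate buffer. The ratios to Citrate buffer were 2.60 [2.5 to 2.70] and 1.77 [1.69 to 1.84], and the intervals of the levels did not overlap. Regulatory T-like barcodes, where Hsph1 was no higher in Free OVA than in Citrate buffer, held 571, 457 and 298 CPM of Dnaja1, and migratory DC-like barcodes 321, 218 and 231 CPM. Dnajb1 in B-like barcodes was at 45.5 CPM in LysoPS-OVA, 38.4 in Free OVA and 17.6 in Citrate buffer. For this gene the libraries with ovalbumin lay close together and Citrate buffer was low: Free OVA was 2.18 times Citrate buffer [1.90 to 2.5], and LysoPS-OVA 1.18 times Free OVA [1.08 to 1.30]. In CD4 T-like barcodes LysoPS-OVA and Free OVA could not be told apart (57.9 and 58.6 CPM, ratio 0.988 [0.864 to 1.13]), with Citrate buffer at 29.2 CPM.

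The inducible Hsp70 genes Hspa1a (ENSMUSG00000091971, chr17:34969190-34972156, minus strand) and Hspa1b (ENSMUSG00000090877, chr17:34956436-34959238, minus strand) lie 9951 bases apart and encode nearly identical proteins, so the split of reads between them is uncertain. Of the 90-base stretches of the Hspa1a transcript, 49.3% also occur in Hspa1b, but none of those in its last 500 bases do. All kept barcodes held 147, 168 and 16 UMIs of Hspa1a in LysoPS-OVA, Free OVA and Citrate buffer. Of these 65, 104 and 6 lay in migratory DC-like barcodes, and most of the others in barcodes that met no gate. Neither gene reached 50 CPM in any of the 8 classes. In migratory DC-like barcodes Hspa1a was at 34.1 CPM in LysoPS-OVA, 18.9 in Free OVA and 2.17 in Citrate buffer. Citrate buffer was low, at a ratio of 15.8 [6.86 to 44.5] for LysoPS-OVA and 8.72 [3.87 to 24.3] for Free OVA. Hspa1b was at 12.6, 16.5 and 3.25 CPM, and the sum of both genes at 46.7, 35.4 and 5.41 CPM. The sum was 8.63 times Citrate buffer [4.96 to 16.1] in LysoPS-OVA and 6.54 times [3.87 to 11.9] in Free OVA, while these 2 libraries differed by 1.32 times [1.02 to 1.70].

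After thinning to 1500 UMIs, Hspa1a was seen in 5.19% [3.32 to 7.69] of 443 migratory DC-like barcodes of LysoPS-OVA, 2.23% [1.55 to 3.10] of 1527 in Free OVA and 0.123% [0.00312 to 0.684] of 812 in Citrate buffer. The unthinned shares were 4.53%, 2.63% and 0.385%. In B-like barcodes the thinned share was 0.125% [0.0458 to 0.272] of 4804 in LysoPS-OVA, 0.0242% [0.000613 to 0.135] of 4132 in Free OVA and 0 of 4420 in Citrate buffer, which allows up to 0.0834%. B-like sums were 12, 7 and 3 UMIs of Hspa1a, which are not read as expression, and conventional DC 1-like barcodes held 0, 6 and 0. The median depth was 1235 to 1529 UMIs in migratory DC-like and 2686 to 4104.5 in B-like barcodes before thinning. The part of depth and of free RNA in the droplets in these shares was not tested.

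The mitochondrial pair, Hspd1 (ENSMUSG00000025980, chr1:55077835-55088243, minus strand) and Hspe1 (ENSMUSG00000073676, chr1:55088132-55091307, plus strand), differed little between libraries. Hspd1 in B-like barcodes was at 155, 118 and 120 CPM in LysoPS-OVA, Free OVA and Citrate buffer, and Hspe1 at 343, 276 and 303 CPM. The ratios of LysoPS-OVA to Citrate buffer were 1.29 [1.22 to 1.37] and 1.13 [1.09 to 1.17]. Under a gate of 3 markers and none of another lineage, which left 162 and 204 B-like barcodes, they were 0.758 for Hspd1 and 0.958 for Hspe1. Both lay below 1 there, but no interval is given for these few barcodes, so no direction is read from them. In migratory DC-like barcodes the direction differed: Hspe1 was at 449 and 432 CPM against 526 CPM in Citrate buffer, or 0.854 [0.784 to 0.930] and 0.820 [0.768 to 0.876] times. Plasma-like barcodes held 259, 268 and 260 CPM of Hspd1, with overlapping intervals.

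**Figure D2:**
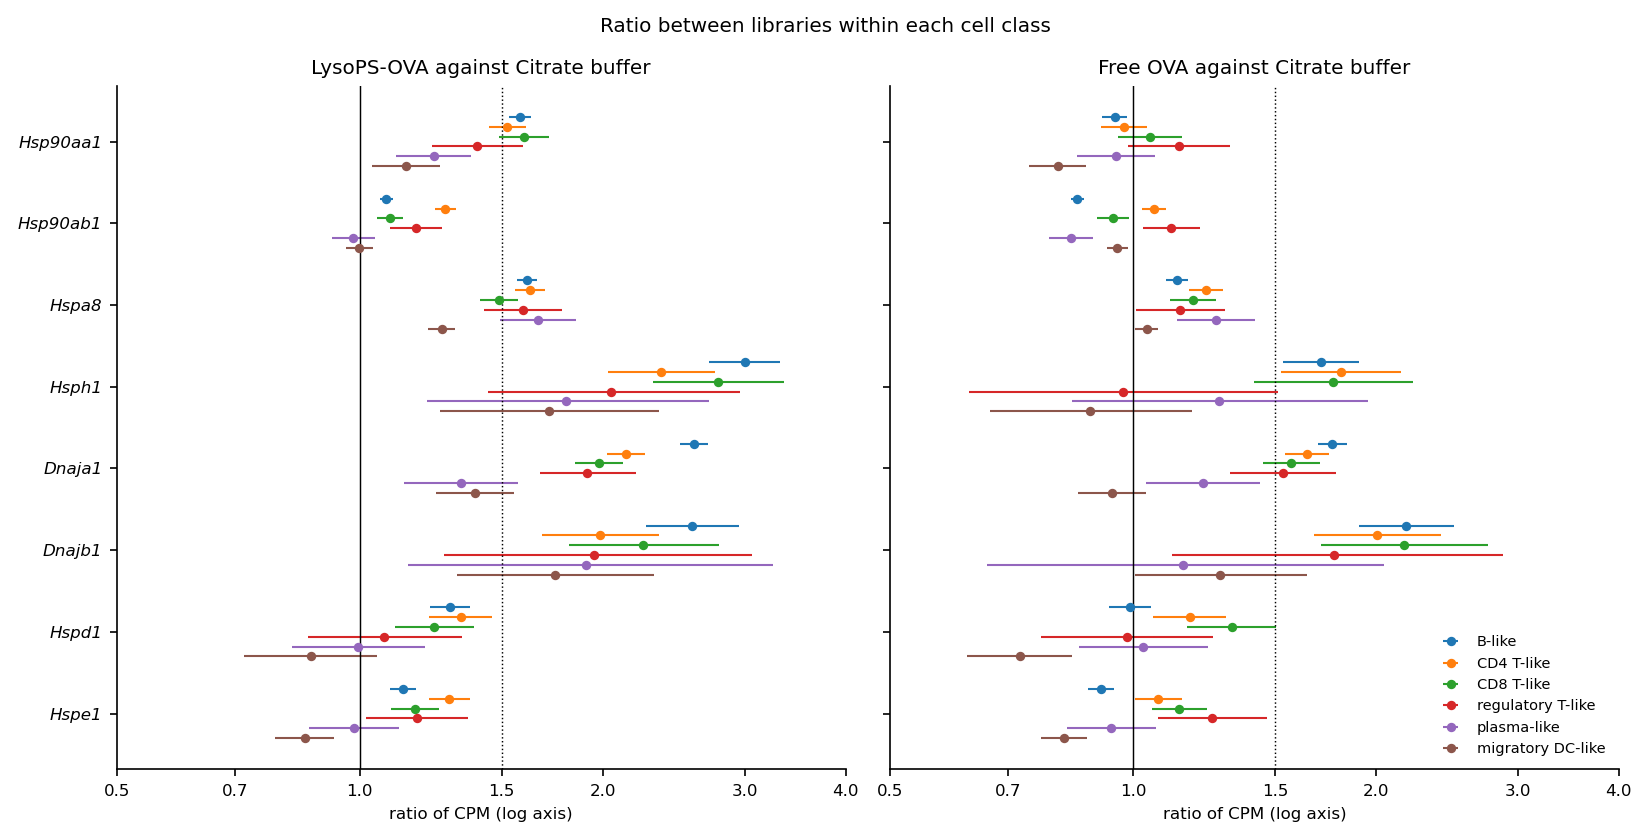
Ratio of CPM to Citrate buffer (log axis) for 8 genes in 6 classes, for LysoPS-OVA on the left and Free OVA on the right; points are ratios, bars 95% counting intervals, the dotted line 1.5-fold. B-like Hsph1 and Dnaja1 reach 3.0 and 2.60 on the left, and migratory DC-like barcodes show the smallest ratios for Hsp90aa1, Hspa8, Hspd1 and Hspe1 on both sides.

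A gene was called higher when it reached 50 CPM and 30 UMIs in the higher library and exceeded 1.5-fold. In B-like barcodes 7 of the 10 genes reached that level, and Hsph1, Dnaja1, Hsp90aa1 and Hspa8 were called higher in LysoPS-OVA than in Citrate buffer, where 2.31% of all 3506 genes were; Dnajb1, Hspa1a and Hspa1b were below the level. Hsph1 and Dnaja1 were also called higher in Free OVA than in Citrate buffer (1.1% of all genes), and Hsph1 and Hsp90aa1 in LysoPS-OVA than in Free OVA (0.477%). Since the set was chosen on this contrast, nothing is read from the counts that involve LysoPS-OVA. In CD4 T-like barcodes 5 of 8 genes were called higher against Citrate buffer in LysoPS-OVA (1.22% of all genes) and 3 of 8 in Free OVA (0.772%), and in CD8 T-like barcodes 4 of 8 (1.37%) and 3 of 8 (1.03%). Regulatory T-like barcodes gave 4 of 8 (4.22%) and 2 of 7 (4.3%), plasma-like 3 of 8 (3.8%) and 0 of 7 (3.65%), and migratory DC-like 1 of 7 (5.1%) and 0 of 6 (1.64%). Conventional DC 1-like barcodes gave 1 of 6 (2.43%) and 0 of 6 (3.53%), and macrophage-like ones 2 of 5 (8.81%) and 0 of 6 (8.58%), with Hspa8 called lower in the latter (20.1% of all genes). For LysoPS-OVA against Free OVA the counts were 1 of 8 in CD4 T-like (0.375%), 2 of 8 in CD8 T-like (0.854%), 1 of 8 in regulatory T-like (4.4%), 1 of 8 in plasma-like (3.51%), 0 of 7 in migratory DC-like (12.8%), 1 of 6 in conventional DC 1-like (3.14%) and 2 of 5 in macrophage-like barcodes (7.99%). Past 2-fold in B-like barcodes, Hsph1 and Dnaja1 were higher in LysoPS-OVA than in Citrate buffer (0.342% of all genes), and no gene of the set in Free OVA against Citrate buffer (0.29%) or LysoPS-OVA against Free OVA (0.0298%). The Free OVA and LysoPS-OVA ratios share the Citrate buffer library.

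Summed over the 10 genes, B-like barcodes held 3581 CPM in LysoPS-OVA, 2604 in Free OVA and 2574 in Citrate buffer. LysoPS-OVA was 1.39 times Citrate buffer [1.37 to 1.41] and Free OVA 1.01 times [0.999 to 1.02]. Free OVA had less Hsp90ab1 and more Dnaja1 than Citrate buffer. The sum in CD4 T-like barcodes was 1.49 [1.46 to 1.52] and 1.17 [1.15 to 1.20] times Citrate buffer, and in migratory DC-like barcodes 1.11 [1.09 to 1.14] and 0.965 [0.947 to 0.984] times. The median ratio of all genes at level in B-like barcodes was 0.979 for LysoPS-OVA and 0.941 for Free OVA against Citrate buffer.

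The same counts can be given as a share of barcodes, which adds no separate support. B-like barcodes thinned to 1500 UMIs carried Dnaja1 in 47.1% [45.6 to 48.5] of LysoPS-OVA, 34.0% [32.6 to 35.5] of Free OVA and 22.9% [21.6 to 24.1] of Citrate buffer barcodes. For Hsph1 the shares were 12.2% [11.3 to 13.2], 7.09% [6.33 to 7.92] and 4.25% [3.68 to 4.89]. Both orders are those of the summed levels, which come from the same barcodes. The unthinned shares, at median depths of 4104.5, 3637 and 2686 UMIs, were 73.1%, 55.4% and 37.3% for Dnaja1 and 27.4%, 15.5% and 8.06% for Hsph1. Of the same thinned barcodes 26.5%, 41.6% and 48.3% had no UMI of Hsp90aa1, Hsph1, Dnaja1 or Dnajb1, and the mean over barcodes was 1.67, 1.03 and 0.84 UMIs. CD4 T-like barcodes showed the same order, with 22.0%, 31.6% and 40.9% at 0. Thinning left out 278, 1301 and 901 B-like barcodes that were shallower and kept 4804, 4132 and 4420. Of migratory DC-like barcodes it left out 771, 1555 and 747.

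**Figure D3:**
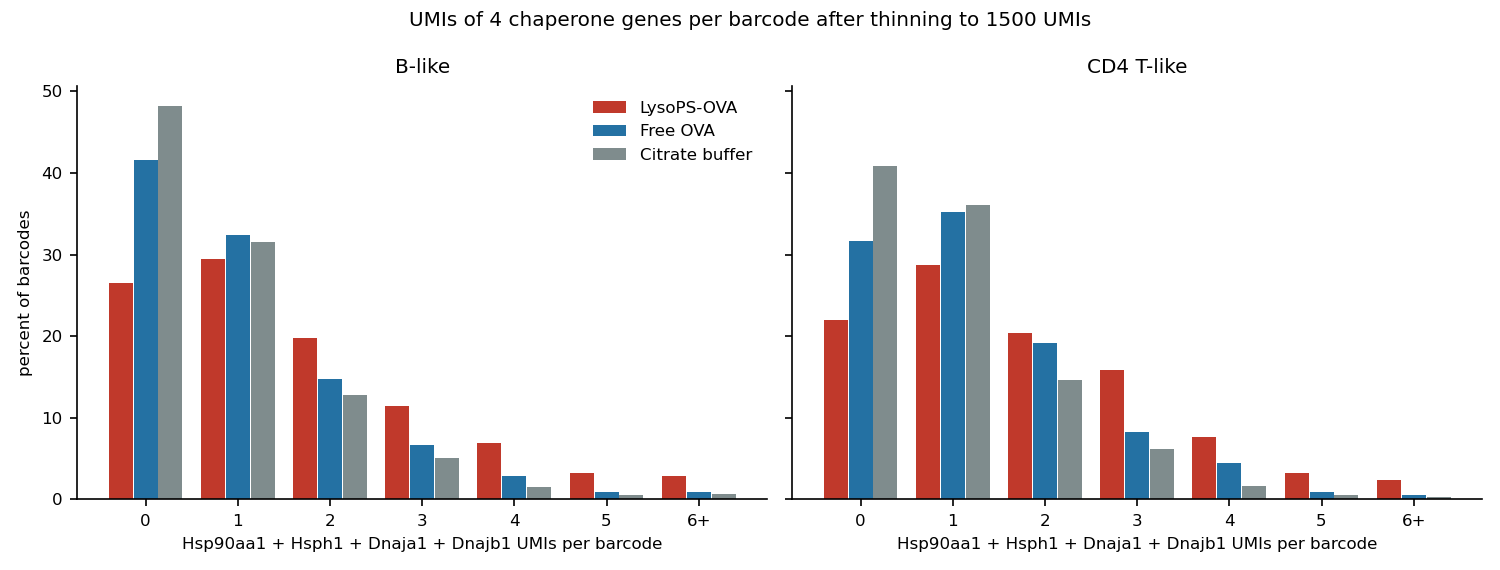
Percent of B-like (left) and CD4 T-like (right) barcodes by the number of Hsp90aa1, Hsph1, Dnaja1 and Dnajb1 UMIs after thinning each barcode to 1500 UMIs, per library. In LysoPS-OVA the whole distribution lies further right, with 26.5% of B-like barcodes at 0 against 48.3% in Citrate buffer, and the last bin pools 6 or more UMIs.

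Between classes, the highest class was the same in all 3 libraries for the sum, Hsp90aa1, Hsp90ab1, Hspa8 and Hspd1. It changed between libraries for Hsph1, Dnaja1, Dnajb1 and Hspe1, whose leading classes had overlapping intervals. For Dnajb1, CD8 T-like barcodes came first in LysoPS-OVA and Free OVA and macrophage-like ones in Citrate buffer. The summed level of the 10 genes was highest in migratory DC-like barcodes (6345, 5496 and 5693 CPM), next in plasma-like barcodes (5710, 4804 and 4994 CPM), and lowest in B-like barcodes in LysoPS-OVA and Free OVA and in CD4 T-like barcodes in Citrate buffer. Migratory DC-like and plasma-like intervals did not overlap in any library. CD8 T-like and regulatory T-like intervals overlapped in all 3. Hsp90aa1 and Hspd1 were highest in plasma-like barcodes in all 3 libraries, with no overlap with the next class, and Hspa8 was highest in migratory DC-like barcodes. Hsp90ab1 was highest in migratory DC-like barcodes, whose interval overlapped that of plasma-like barcodes in LysoPS-OVA and Citrate buffer. For Dnaja1 the 3 T-like classes came first in LysoPS-OVA (570 to 588 CPM) and Free OVA (438 to 466 CPM) with overlapping intervals. In Citrate buffer plasma-like barcodes came first for Dnaja1 at 310 CPM, overlapping regulatory T-like ones, and B-like barcodes last at 188 CPM.

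Migratory DC-like barcodes, named for the dendritic cells that carry antigen from the gut wall to the node, had far more Hspa8 than B-like barcodes of the same library. The levels were 2490 against 681 CPM in LysoPS-OVA, 2051 against 479 in Free OVA and 1972 against 422 in Citrate buffer. The ratios were 3.65 [3.54 to 3.78], 4.28 [4.17 to 4.40] and 4.67 [4.50 to 4.84], so all 3 libraries showed it. Hsp90ab1 was 1.94, 2.35 and 2.10 times as high. Hspa1a was 62.0 times [33.2 to 126], 58.0 times [27.2 to 148] and 11.8 times [2.53 to 73.1] as high, on the few B-like UMIs given above. Hsph1 and Dnaja1 were lower in migratory DC-like than in B-like barcodes in LysoPS-OVA (0.550 and 0.656 times) and Free OVA (0.497 and 0.654 times), but not in Citrate buffer (0.962 [0.747 to 1.22] and 1.23 [1.12 to 1.33] times). Of the chaperones at level 2 of 8, 3 of 7 and 3 of 6 were called higher, against 22.8%, 21.7% and 21.7% of all genes. Hsph1, Dnaja1 and Hspd1 were called lower in LysoPS-OVA and Free OVA and no gene of the set in Citrate buffer, against 53.2%, 57.2% and 50.5% of all genes. Hspd1 was 0.611, 0.664 and 0.909 times as high.

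Migratory DC-like barcodes were low in Malat1 in 81.0% to 86.7% of cases, so the contrast was repeated, after the data had been seen, among barcodes on the same side of the Malat1 threshold. Among barcodes low in Malat1, Hspa8 was 2.5 [2.32 to 2.69], 3.08 [2.93 to 3.24] and 2.47 [2.34 to 2.62] times as high in migratory DC-like as in B-like barcodes, and among whole-cell-like barcodes, with Malat1 and ribosomal transcripts above their thresholds, 3.61, 3.05 and 4.41 times. Hspa8 was therefore higher on both sides of the threshold. Hsp90ab1 was 1.60, 1.75 and 1.72 times as high among whole-cell-like and 1.35, 1.48 and 1.11 times among low-Malat1 barcodes. Dnaja1 was lower in migratory DC-like than in B-like barcodes in all 3 libraries among barcodes low in Malat1, at 0.745, 0.705 and 0.808 [0.719 to 0.909] times. Hspe1 did not keep its direction: 1.31, 1.56 and 1.74 times in all barcodes became 0.798 [0.712 to 0.894], 0.970 [0.904 to 1.04] and 0.869 [0.804 to 0.939] among barcodes low in Malat1. The part of dividing cells among low-Malat1 B-like barcodes in these ratios was not tested.

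Plasma-like barcodes, named for markers of antibody-secreting cells, had more of both Hsp90 genes, Hspa8 and the mitochondrial pair than B-like barcodes. Their 7 plasma cell markers summed to 2944, 5518 and 3293 CPM and the 6 B cell markers to 3940, 3717 and 3859 CPM. The plasma-like gate set no limit on B cell markers, and the part of barcodes that mix both cell types was not tested. Hsp90aa1 was 1.74 [1.62 to 1.87], 2.24 [2.07 to 2.42] and 2.23 [2.05 to 2.43] times as high in LysoPS-OVA, Free OVA and Citrate buffer, and Hspd1 1.68, 2.26 and 2.18 times. Of the genes at level, 5 of 8, 5 of 7 and 6 of 6 were called higher, against 24.8%, 25.7% and 22.8% of all genes. Hsph1 was 0.987, 1.23 and 1.65 times as high, and only the Citrate buffer interval [1.16 to 2.27] lay above 1. Low-Malat1 barcodes gave Hsph1 ratios of 1.54, 2.24 and 1.93. Among whole-cell-like barcodes (46 to 65 plasma-like barcodes per library) the Hsp90aa1 ratios were 1.38, 1.83 and 1.58, and the Hspd1 ratio in Citrate buffer was 0.983 [0.731 to 1.30].

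Both Hsp90 genes, Hspa8 and the mitochondrial pair were also higher in dividing lymphocytes. Cycling B-like and T-like barcodes (64, 136 and 375) held 1092, 853 and 1014 CPM of Hsp90aa1 against 494, 306 and 302 in the other B-like and T-like barcodes. The ratio was 2.21 [1.95 to 2.49], 2.79 [2.54 to 3.05] and 3.36 [3.18 to 3.55], highest in Citrate buffer. Among the other barcodes LysoPS-OVA was high and the remaining libraries lay close together. Hspd1 was 2.33, 3.11 and 3.21 times as high, Hspe1 2.10, 2.86 and 2.73 times and Hspa8 1.83, 2.12 and 2.11 times. Hsph1 (0.975 and 0.997 times), Dnaja1 (1.04 and 1.14 times) and Dnajb1 (1.06 and 0.697 times) had intervals that included 1 in LysoPS-OVA and Free OVA, for Dnaja1 in Free OVA narrowly [0.999 to 1.29]. In Citrate buffer Hsph1 was 1.66 [1.30 to 2.10] and Dnaja1 1.67 [1.53 to 1.82] times as high in cycling barcodes. Cycling barcodes were also mostly low in Malat1 (54 of 64, 121 of 136 and 295 of 375). Among low-Malat1 barcodes alone the Hsp90aa1 ratio was 1.84 [1.56 to 2.16], 2.78 [2.49 to 3.10] and 2.27 [2.10 to 2.45], and that of Hspe1 0.978 [0.798 to 1.19] in LysoPS-OVA. Of the chaperones at level 5 of 7, 5 of 7 and 7 of 7 were called higher, against 20.4%, 30.7% and 28% of all genes.

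Germinal centre B-like barcodes (79, 127 and 166) held 1.93 [1.78 to 2.09], 2.08 [1.94 to 2.23] and 1.86 [1.75 to 1.98] times the Hsp90ab1 of other B-like barcodes. Hsp90aa1 was 1.73, 1.79 and 2.32 times as high there and Hspe1 2.06, 1.55 and 1.65 times. The count called higher was 5 of 6, 4 of 7 and 6 of 6, against 16.3%, 22% and 22.6% of all genes. Among T-like classes the differences were small: Hspe1 was 1.28 [1.21 to 1.35], 1.5 [1.38 to 1.61] and 1.41 [1.32 to 1.51] times as high in CD8 as in CD4 T-like barcodes, and Hsp90aa1 1.10, 1.41 and 1.20 times in regulatory T-like as in CD4 T-like barcodes. No chaperone at level was called higher in either contrast, where 2.42%, 2.51% and 2.2% of all genes were for CD8 T-like and 10%, 10.7% and 6.47% for regulatory T-like barcodes. Against B-like barcodes, CD4 T-like ones had 0 of 8, 1 of 8 and 0 of 6 called higher (13.6%, 15% and 14% of all genes), the 1 being Dnajb1 in Free OVA.

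**Figure D4:**
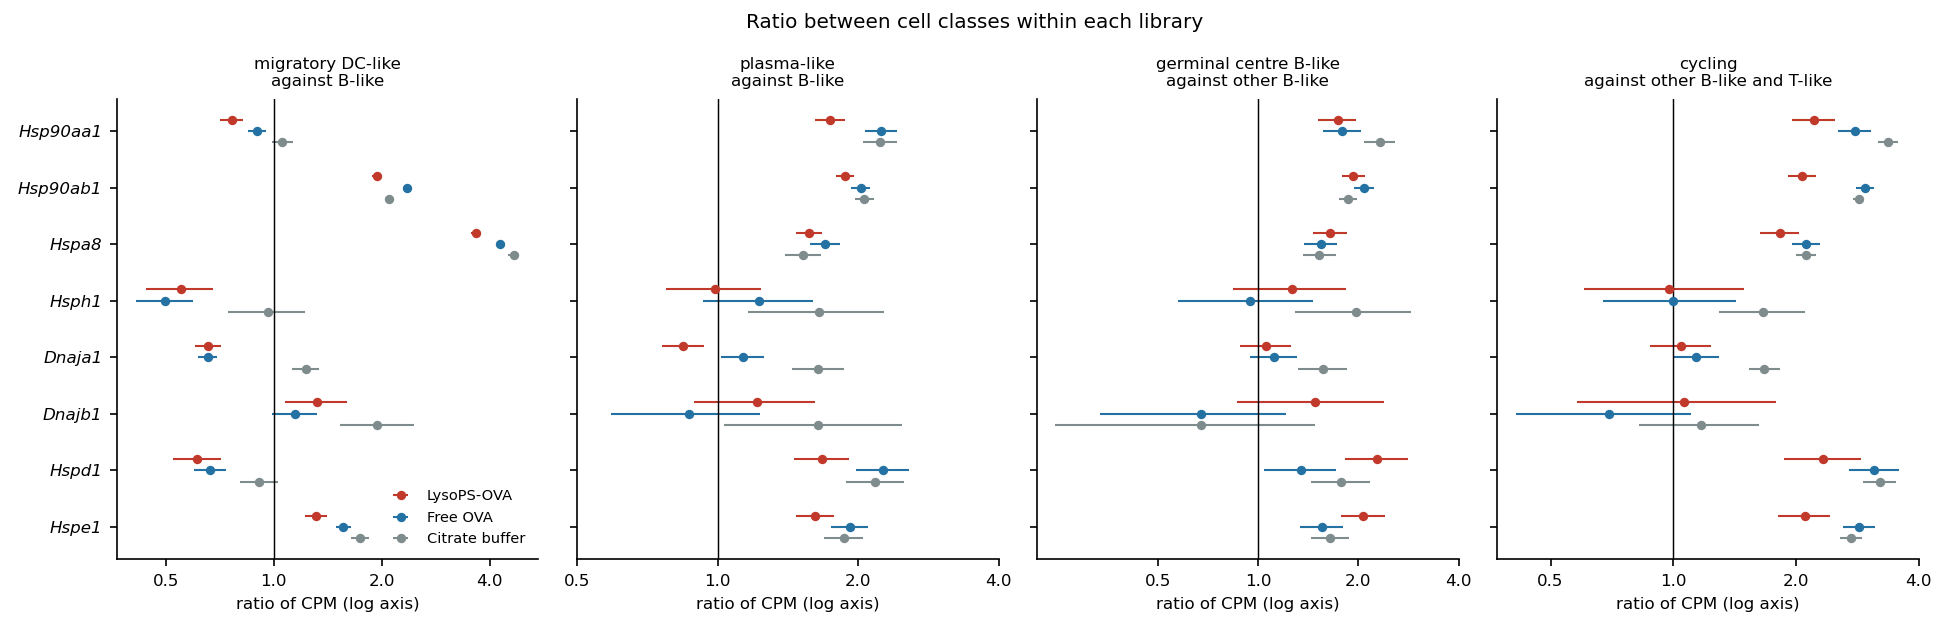
Ratio of CPM between classes inside each library (log axis) for 8 genes in 4 contrasts; points are ratios, bars 95% counting intervals, colours libraries. Hspa8 lies at 3.65 to 4.67 in migratory DC-like against B-like barcodes, and Hsp90aa1, Hsp90ab1, Hspa8, Hspd1 and Hspe1 lie above 1 in the other 3 contrasts, while the intervals of Hsph1 and Dnajb1 there mostly span 1.

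The ratios between libraries differed among kinds of B-like barcodes. In whole-cell-like barcodes (3848 in LysoPS-OVA and 2824 in Citrate buffer) the LysoPS-OVA ratio to Citrate buffer was 3.16 [2.80 to 3.58] for Hsph1, 2.75 for Dnaja1 and 1.72 for Hsp90aa1. In barcodes low in Malat1 (361 and 944) these were 1.57 [1.06 to 2.30], 1.55 [1.35 to 1.76] and 0.983 [0.882 to 1.09]. Hsp90aa1 was thus as high in Citrate buffer (606 CPM) as in LysoPS-OVA (595 CPM) there, and the summed level of the 10 genes was 5078 CPM in each. Free OVA low-Malat1 barcodes were lower, at 3698 CPM and 0.728 times Citrate buffer [0.708 to 0.749]. Cycling barcodes, which held more Hsp90aa1, were mostly low in Malat1 and most numerous in Citrate buffer. Their part in these low-Malat1 ratios was not tested. In barcodes low in ribosomal transcripts the Hsph1 ratio was 3.14 and the Dnaja1 ratio 1.93.

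Among B-like barcodes with Y-linked transcripts and no Xist, Hsph1 was 3.67 [3.07 to 4.41] times as high in LysoPS-OVA as in Citrate buffer, and among those with Xist and no Y-linked transcripts 2.60 [2.06 to 3.29] times. Dnaja1 was 2.70 and 2.61 times as high. Both kinds of barcode come from the same libraries, and the part of the sex mix in the ratios was not tested. Hsp90ab1 differed: 1.06 [1.03 to 1.10] in the first kind and 1.52 [1.45 to 1.59] in the second, where LysoPS-OVA held 1532 CPM and Citrate buffer 1010 CPM. CD4 T-like barcodes gave 1.18 and 1.62 for the same 2 ratios.

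**Figure D5:**
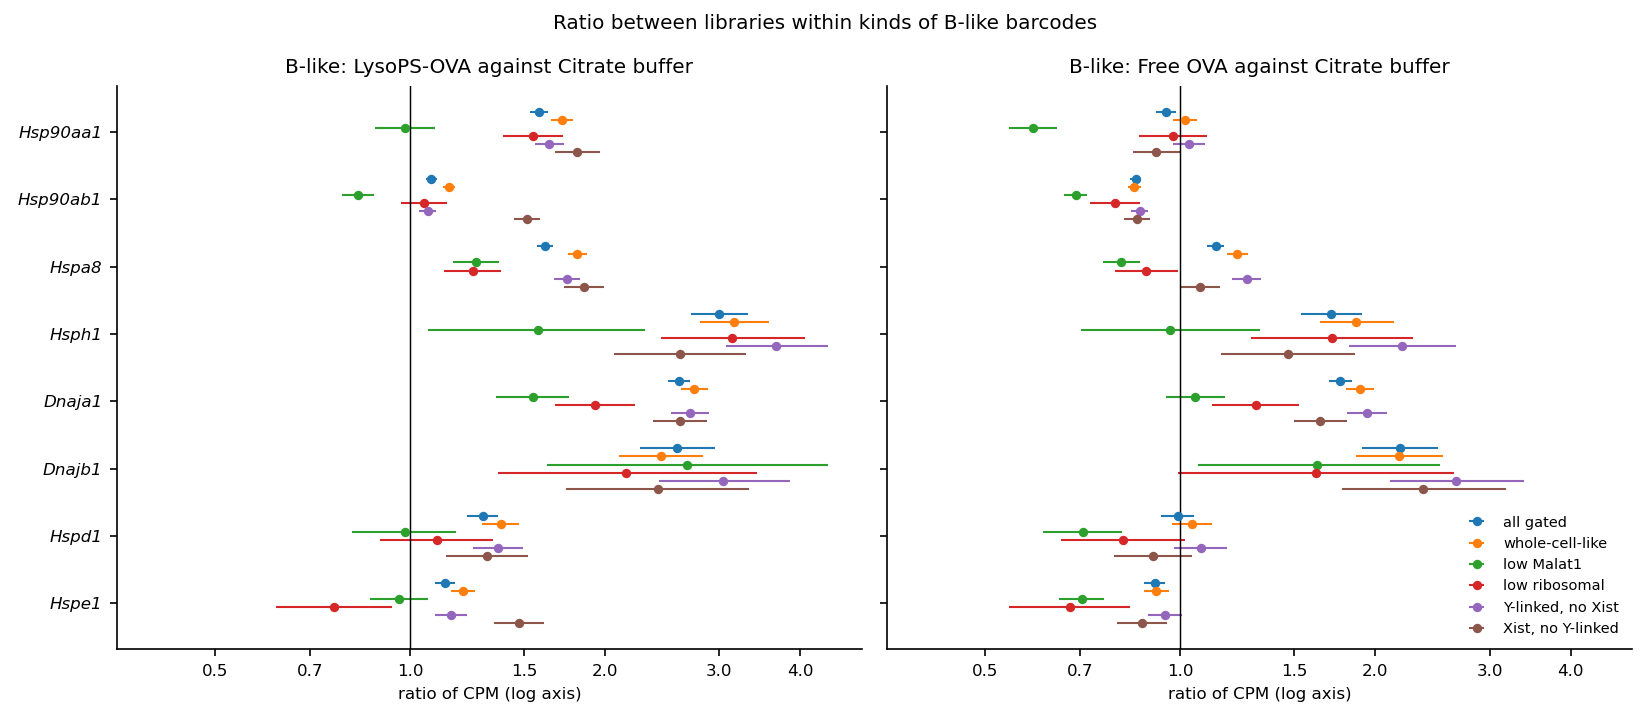
Ratio of CPM to Citrate buffer (log axis) in B-like barcodes for 8 genes, in all gated barcodes and in 5 kinds of barcode (colours), for LysoPS-OVA (left) and Free OVA (right); bars are 95% counting intervals. Barcodes low in Malat1 give the smallest ratios for most genes, including 0.983 for Hsp90aa1 on the left, while Hsph1 and Dnaja1 stay above 1 on the left in all kinds.

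Immediate early genes, which are induced within minutes by many stimuli and also by tissue digestion, were also counted. Their 16 members summed to 1853 CPM in LysoPS-OVA, 1610 in Free OVA and 1116 in Citrate buffer among B-like barcodes, to 1868, 1637 and 1487 CPM among CD4 T-like barcodes and to 756, 666 and 679 CPM among migratory DC-like barcodes. The sum was 656, 916 and 755 CPM in conventional DC 1-like and 660, 621 and 676 CPM in macrophage-like barcodes, where LysoPS-OVA was not the highest. In B-like barcodes 9 of the 16 reached the level, and 7 were called higher and 0 lower in LysoPS-OVA against Citrate buffer, with a median log2 ratio of 0.70 beside -0.03 for all genes and 2.31% of all genes called higher. Fos was 3.28 times [2.94 to 3.67] as high, Jun 2.27, Klf6 1.86 and Junb 1.81 times. In Free OVA 4 of 9 were called higher (1.1% of all genes), with a median of 0.44 beside -0.08. In B-like barcodes the sum had the library order of Dnaja1 and Hsph1. The part of tissue handling in the chaperone values was not tested, and with 1 library per group handling and feeding cannot be told apart.

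Other chaperone genes, taken by role, were mostly level between LysoPS-OVA and Citrate buffer in B-like barcodes. The exception was the Hsp90 co-chaperones, where 8 of 15 reached the level and 3 were called higher (2.31% of all genes) and 0 lower, with a median log2 ratio of 0.36. Stip1, the Hop adaptor between Hsp70 and Hsp90, was at 89.4 CPM against 51.1, 1.75 times as high [1.61 to 1.90]. Cacybp (1.63 times), Chordc1 (1.62 times) and the immunophilin Fkbp4 (1.37 times) followed. In Free OVA none of the 8 was called higher (1.1% of all genes) and the median was 0.11. Among heat shock factors and classical stress targets 6 of 13 reached the level and 1 was called higher (2.31% of all genes), Ier5 at 1.90 times, while Sqstm1 was 1.27 and Ubb 0.855 times (median 0.19). In Free OVA 1 was called higher (1.1% of all genes) and 1 lower, with a median of 0.01.

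No gene was called in the remaining lists for LysoPS-OVA against Citrate buffer. Of other Hsp70 and Hsp110 proteins and exchange factors 5 of 14 reached the level (median log2 ratio -0.08), with St13 at 1.27 and Bag1, Hspa14 and Hspa4 at 0.893 to 0.944 times. Of other J-domain proteins 10 of 18 did (median -0.13), and Dnajc2, Dnajc1, Dnajc13 and Dnajc8 lay at 0.740 to 0.875 times. Of the cytosolic chaperonin TRiC and prefoldin 13 of 14 reached the level (median -0.06), with Cct2 at 0.832, Pfdn6 at 0.864, Pfdn1 at 0.871 and Vbp1 at 1.14 times. Of other mitochondrial chaperones and proteases 4 of 14 did (median 0.03), with Clpp at 1.14, Dnajc19 at 1.07, Yme1l1 at 0.983 and Hspa9, the mitochondrial Hsp70, at 0.960 times. Of endoplasmic reticulum chaperones and unfolded protein response genes 13 of 20 did (median 0.02), with Dnajb9 at 1.46, Herpud1 at 1.30, Atf4 at 1.26 and Pdia6 at 0.861 times. None of the 6 small heat shock proteins reached the level; they summed to 24.5 against 27.9 CPM.

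Across 25 class and library sums with at least 50 barcodes, the genes of the set were compared by Pearson's r of log2(CPM + 10), given as a description because the sums share libraries, depth and cell makeup. Hsp90aa1 ran with Hspd1 (0.850), Hsp90ab1 with Hspa8 (0.823) and Hspe1 (0.801), Dnaja1 with Hsph1 (0.751) and Dnajb1 (0.741), and Hspa1a with Hspa1b (0.796). The last value rests on low counts, at most 34.1 CPM of Hspa1a and 16.5 CPM of Hspa1b in any sum. Hsph1 and Dnaja1 had both been seen higher in LysoPS-OVA before the set was proposed, so their value supports nothing. Hsph1 and Hspa8 did not run together (-0.12). Many genes outside the set ran closer to some of these: for Hsp90ab1, Hspa8 ranked 90 and Hspe1 110, behind Sumo2 (0.954) and Gapdh (0.932), and Hspa8 was closest to Atp6v0e (0.910). These 3 genes were named after their values were seen. Of 5943 genes compared, those most like Hsph1 outside the set were Stip1 (0.821), Chordc1 (0.809), the Y-linked Eif2s3y (0.772), Rbm39 (0.750) and Cd69 (0.745). The share of B-like barcodes with Y-linked transcripts was also highest in LysoPS-OVA, and its part in these correlations was not tested.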

How the data were processed

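Gene counts per cell barcode (UMIs) were deposited as filtered matrices, 1 per library, and the submitters' processing notes name Cell Ranger 7.2.0 and the mouse build mm10. For the intron setting and the annotation release, the sources used here give nothing. The genes of the set, the lists and the tests were chosen with earlier results of these data known. Kept barcodes had 300 or more genes, 10% or less mitochondrial UMIs and no doublet call from Scrublet (scanpy 1.11.5, rate 0.8% per 1000 barcodes), which marked 7.20%, 6.74% and 15.1% in LysoPS-OVA, Free OVA and Citrate buffer. A class needed 2 of its own markers (3 for plasma-like) and at most 1 of any other lineage. The exception was the plasma-like gate, which set no limit on B cell markers. Whole-cell-like barcodes had at least 0.5% Malat1 and 10% ribosomal UMIs. Raw UMIs were summed per class and library and divided by the class total (CPM).

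With 1 library per group no test across samples could be made, and cells are not replicates, so no p-value is given. CPM carry exact Poisson intervals, ratios exact conditional binomial intervals and shares exact Clopper-Pearson intervals, all at 95%. A gene was at level with 50 CPM and 30 UMIs in the higher group. Log2 ratios of lists used a pseudocount of 10 CPM, which understates the change of low genes. Shares of barcodes were computed after thinning to 1500 UMIs. From each list up to 4 genes at level with the log2 ratio farthest from 0 for LysoPS-OVA against Citrate buffer in B-like barcodes are named, and the 5 genes most like Hsph1; 1 gene that this rule names is not reported here. Positions are from the GENCODE annotation of GRCm38. The calculation was tested on simulated Poisson counts, which hold no spread between barcodes, animals or libraries. That run checks only the arithmetic of the ratios and intervals. The tools were matplotlib 3.10.9, pandas 2.3.3, scipy 1.17.1 and numpy 2.4.6 under Python 3.11.15.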

Additional observations from a re-analysis of the deposited data

Results flagged for a closer look

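For 5 ratios to Citrate buffer the counting intervals lay above 1 in one class and below 1 in another; each pair is 1 library against 1 library, the pairs were picked as the extremes, and the difference was not tested. Hspe1 in LysoPS-OVA was 1.29 [1.22 to 1.37] times Citrate buffer in CD4 T-like and 0.854 [0.784 to 0.930] times in migratory DC-like barcodes. Hsp90ab1 in Free OVA was 1.12 [1.03 to 1.21] times in regulatory T-like and 0.838 [0.787 to 0.893] times in plasma-like barcodes. Hspa8 in Free OVA was 1.27 [1.13 to 1.42] times in plasma-like and 0.665 [0.527 to 0.838] times in macrophage-like barcodes. Hspd1 in Free OVA was 1.33 [1.17 to 1.51] times in CD8 T-like and 0.724 [0.623 to 0.841] times in migratory DC-like barcodes. Hspe1 in Free OVA was 1.25 [1.07 to 1.47] times in regulatory T-like and 0.818 [0.701 to 0.956] times in conventional DC 1-like barcodes. The median ratio of all genes to Citrate buffer was 0.948 in migratory DC-like barcodes of LysoPS-OVA. In Free OVA it was 0.831 in migratory DC-like, 0.838 in conventional DC 1-like, 0.963 in plasma-like, 0.978 in macrophage-like, 0.933 in regulatory T-like and 0.905 in CD8 T-like barcodes, so Hspe1 in conventional DC 1-like barcodes lay near the median of all genes.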

How the results depend on the processing

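No paired analysis was possible because each group is 1 library and no result comes from a test; leaving out a library was not run, since it would remove a whole group. Of 1296 single-gene ratios under an alternative, 97 lay on the other side of 1 from the reported ratio, and 10 of these had a reported ratio past 1.5-fold. The causes were not tested.

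The summed level in B-like barcodes, LysoPS-OVA against Citrate buffer (1.39), was 1.22 with 3 markers and none of another lineage (162, 303 and 204 B-like barcodes left), 1.36 with all barcodes, at most 5% mitochondrial UMIs or thinning to 1500, 1.42 after centring on the median of all genes, 1.49 in whole-cell-like, 1.43 in Y-linked and 1.70 in Xist barcodes. The 4 genes called became 2 when thinned to 1000 UMIs or past 2-fold. For Free OVA against Citrate buffer (1.01) the same settings gave 0.967, 0.998, 0.967, 0.993, 1.08, 1.05, 1.07 and 0.987; scaling without ribosomal, mitochondrial, receptor and noncoding transcripts gave 1.06, mean CPM 1.03 and thinning to 1000 UMIs 1.04. The 2 genes called became 0 under the stricter gate or past 2-fold, and 1 with at most 5% mitochondrial UMIs, without doublet removal, with mean CPM, thinned to 1000 UMIs or in Xist barcodes. For LysoPS-OVA against Free OVA (1.38) the values were 1.26 (stricter gate), 1.40 (mitochondrial), 1.31 (scaling), 1.32 (centred), 1.34 (mean CPM and thinned to 1000 UMIs), 1.43 (whole-cell-like), 1.33 (Y-linked) and 1.73 (Xist), and the 2 genes called became 6 in Xist barcodes and 0 past 2-fold.

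Under the stricter gate, the Dnajb1 ratio to Citrate buffer in CD8 T-like barcodes fell below 1 (0.806 in LysoPS-OVA, 0.699 in Free OVA). So did Hsph1 in CD8 T-like Xist barcodes of Free OVA (0.994). The stricter gate left only 53, 49 and 43 CD8 T-like barcodes in LysoPS-OVA, Free OVA and Citrate buffer, and Free OVA had 46 Xist ones. No interval is given for these ratios, so no direction is read from them. In B-like barcodes the stricter gate put smaller ratios to Citrate buffer on the other side of 1, again without intervals: Hspd1 (0.758) and Hspe1 (0.958) in LysoPS-OVA and Hspa8 (0.878) in Free OVA. Without the filter on low counts, the B-like median log2 ratio against Citrate buffer was -0.071 for other mitochondrial chaperones and -0.0074 for endoplasmic reticulum chaperones in LysoPS-OVA and -0.057 for Hsp90 co-chaperones in Free OVA, and -0.015 for heat shock factors and targets in LysoPS-OVA against Free OVA.

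Alternatives chosen after seeing the data put these class ratios on the other side of 1, among others that were within 1.5-fold. Among whole-cell-like barcodes, Hsph1 in migratory DC-like against B-like was 1.01 in LysoPS-OVA and Dnajb1 0.876 in Citrate buffer; plasma-like against B-like in Citrate buffer was 0.895 for Dnajb1 and 0.983 for Hspd1. Among low-Malat1 barcodes, Hspe1 in migratory DC-like against B-like was 0.798 in LysoPS-OVA, 0.970 in Free OVA and 0.869 in Citrate buffer, and in cycling barcodes 0.978 in LysoPS-OVA.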
